A study of Mus musculus with 9 samples.

Results

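The 10 genes described here are the receptor and signalling genes of interleukin-6 (Il6ra, Il6st, Stat3 and Socs3), the 4 serum amyloid A genes (Saa1, Saa2, Saa3 and Saa4), the haptoglobin gene Hp and the lipocalin gene Lcn2. They were chosen by name from the 19938 genes that the array table held under a single symbol, and where a gene had several probe sets the brightest was used. All 10 were measured, and no filter on low values removed any of them. Liver RNA came from 9 mice, 1 Affymetrix array each. The rescue group (n = 3) carried the Clock-D19 mutation and was injected at week 10, hydrodynamically through the tail vein, with 35 µg of the pLIVE vector holding wild-type Clock. The Clock mutant group (n = 3) carried the same mutation, which impairs the ability of CLOCK to activate its targets together with its partner BMAL1. The wild-type group (n = 3) was C57BL/6J. Mice of all 3 groups ate a diet with 45% fat for 5 weeks, from 10 weeks of age, and were killed at zeitgeber time 10, late in the light phase. A control injection of the Clock mutant and wild-type mice is not described in the labels, so the procedure and the plasmid cannot be told apart in the rescue group. The pLIVE vector is built for expression in hepatocytes, and hydrodynamic injection reaches only some of them. The number of arrays limits the precision, and the p-values measure the spread between these animals. The mean of 16 measured hepatocyte markers was 11.30 to 11.62 in rescue, 11.56 to 11.58 in Clock mutant and 11.31 to 11.53 in wild-type livers (log2), which fits the labelled tissue. All 16 lay above the median of the olfactory and vomeronasal receptor genes on every array, but so did all 21 endothelial markers.

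Interleukin-6 is the main inducer of the hepatic acute phase response, in which the liver raises its output of defence and transport proteins after injury or infection. The cytokine binds IL-6 receptor alpha, encoded by Il6ra, and this pair engages gp130, the signalling chain that Il6st encodes and that is shared by the receptors of the other cytokines of the family. The kinases bound to gp130 phosphorylate STAT3, which enters the nucleus and activates acute phase genes together with C/EBP and NF-kB factors. Socs3 is itself a STAT3 target, and its product blocks gp130 and its kinases. Saa1 and Saa2 encode the inducible serum amyloid A proteins of high-density lipoprotein, Saa3 is expressed mostly outside hepatocytes, in macrophages and fat, and Saa4 encodes the form that liver makes constitutively. Haptoglobin binds free haemoglobin, and lipocalin 2 binds bacterial siderophores and is made by hepatocytes and neutrophils.

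The promoter sequences below are shown because Saa1 and Saa2 are near copies of each other while Saa4, the Saa gene that passed the test below, is not, and because Il6ra carries the E-box sequence that CLOCK and BMAL1 bind. Each is the window of 250 bases before the gene start used in the RefSeq promoter table (build GRCm38.p6), written 5′ to 3′ on the strand of the gene. The table held 9 of the 10 genes. Capitals mark matches to 4 motifs searched on both strands, namely STAT (TTCNNNGAA), C/EBP (TTNNGNAA), NF-kB (GGGNNNNTCC) and the E-box CACGTG.
Il6ra, chr3:89913197-89913446, minus strand: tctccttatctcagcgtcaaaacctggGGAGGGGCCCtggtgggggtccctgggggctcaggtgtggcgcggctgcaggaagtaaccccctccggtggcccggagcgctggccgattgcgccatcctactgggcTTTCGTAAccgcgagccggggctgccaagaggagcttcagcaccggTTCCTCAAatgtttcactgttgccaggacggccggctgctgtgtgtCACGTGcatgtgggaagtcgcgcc
Saa1, chr7:46742981-46743230, minus strand: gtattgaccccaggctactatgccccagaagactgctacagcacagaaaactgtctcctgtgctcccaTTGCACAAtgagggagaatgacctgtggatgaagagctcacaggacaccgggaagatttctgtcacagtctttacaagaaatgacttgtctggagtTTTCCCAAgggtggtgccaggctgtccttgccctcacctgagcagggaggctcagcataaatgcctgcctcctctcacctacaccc
Saa2, chr7:46751583-46751832, plus strand: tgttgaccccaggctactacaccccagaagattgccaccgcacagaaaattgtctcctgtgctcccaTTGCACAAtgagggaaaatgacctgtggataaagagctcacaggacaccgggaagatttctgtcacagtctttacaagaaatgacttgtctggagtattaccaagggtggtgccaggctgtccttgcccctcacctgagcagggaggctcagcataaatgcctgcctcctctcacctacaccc
Saa4, chr7:46732604-46732853, minus strand: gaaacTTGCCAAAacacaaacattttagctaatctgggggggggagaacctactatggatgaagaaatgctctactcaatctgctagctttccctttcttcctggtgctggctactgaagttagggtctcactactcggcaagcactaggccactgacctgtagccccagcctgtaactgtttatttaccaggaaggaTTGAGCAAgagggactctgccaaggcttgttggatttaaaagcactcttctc

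The Il6ra window held the E-box, beginning 24 bases before the start, 2 C/EBP matches (TTTCGTAA, which reads as a match on both strands, and TTCCTCAA) and 1 NF-kB match (GGAGGGGCCC). An E-box was found in 1 of the 9 windows and in 6.02% of the 32851 promoters in the table. Socs3 was the one gene with a STAT match, TTCTTAGAA, and 7.02% of all promoters held one. C/EBP matches were in 7 of the 9 windows, those of the 4 Saa genes, Il6ra, Stat3 and Lcn2, against 36.8% of all promoters. NF-kB matches were in 2, Il6ra and Lcn2, against 16.5%. The window of Il6st, a gene that also passed the test below, is not printed and held none of the 4 motifs. Over the aligned windows, Saa1 and Saa2 had 238 identical bases in 251 columns (94.8%), and both held TTGCACAA. Saa4 was 49.5% identical to Saa1 and 46.8% to Saa2. The start used lay inside the annotated span of the gene for Stat3 (54 bases), Saa1 (201), Socs3 (970) and Saa3 (3939). The windows of these 4 genes therefore lie wholly or partly within the span. The Socs3 STAT match and the Saa1 and Saa3 C/EBP matches lie within it, whereas the Stat3 C/EBP match lies before its first base. These matches describe letters in the windows only.

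Clock mutant livers had lower Il6ra, Il6st and Saa4 than wild-type livers, rescue livers had lower Il6ra and Saa4 than wild-type livers, and no gene of the 10 passed between rescue and Clock mutant livers. The call was an adjusted p under 0.05 in limma, a linear model fitted to all genes, with Benjamini-Hochberg adjustment over the 19938 genes. Of the 10 genes, 0 were called in rescue against Clock mutant, where 3.81% of all genes were called (2.61% higher and 1.2% lower), and 2 had an unadjusted p under 0.05. In Clock mutant against wild type 3 fell and 0 rose, against 15.4% of all genes called, 9.02% lower and 6.37% higher. In rescue against wild type 2 fell and 0 rose, against 2.28% called, 1.35% lower and 0.928% higher. An F test across the 3 groups called 3 of the 10 (Il6ra, Il6st and Saa4) and 12.9% of all genes. The median difference over the 10 genes was -0.14 in rescue against Clock mutant, -0.29 in Clock mutant against wild type and -0.40 in rescue against wild type on the log2 scale, beside -0.05, 0.07 and 0.01 over all genes. Each pair of these comparisons shares the arrays of a group.

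**Figure D1:**
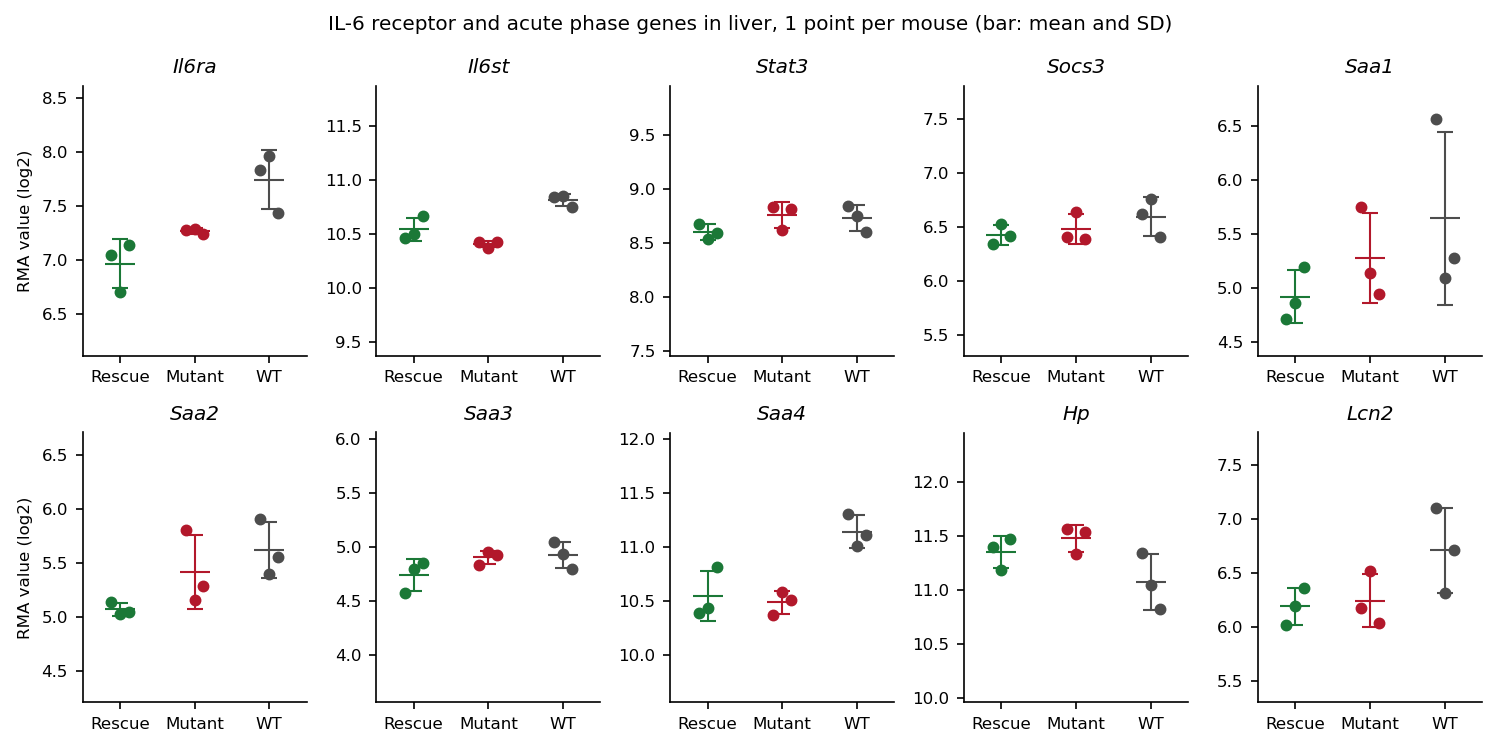
RMA values (log2, vertical axis, the same 2.5-unit height in every panel) of the 10 genes for 3 rescue, 3 Clock mutant (Mutant) and 3 wild-type (WT) livers; each point is a mouse, and bars give the mean and SD. The Il6ra points are lowest in rescue, then in Clock mutant, and highest in wild type, the Saa4 points of rescue and Clock mutant lie together below those of wild type, and Saa1 and Saa2 each have 1 high animal in the Clock mutant and in the wild-type group.

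Macrophage, endothelial, stellate cell and some hepatocyte markers moved in the same arrays. In Clock mutant against wild type, 10 of 19 markers of Kupffer cells and macrophages fell and none rose, and their summed level (the sum of the values on a linear scale) was 2406 to 2595 in Clock mutant livers and 4847 to 6613 in wild-type livers. In rescue livers the sum was 2785 to 3559, and 7 of the 19 were lower than in wild type. Bright genes weigh most in such a sum, and Vsig4 averaged 10.25 in rescue, 9.15 in Clock mutant and 11.29 in wild-type livers (log2). The median difference over the 19 markers was -0.43 in Clock mutant against wild type. In rescue against Clock mutant it was 0.15, and 1 marker rose (Vsig4) and 1 fell (Mpeg1). Of 21 endothelial markers 11 fell in Clock mutant against wild type, with sums of 3814 to 4617 in rescue, 3380 to 3457 in Clock mutant and 4718 to 5251 in wild-type livers. In rescue against Clock mutant 4 of the 21 rose and 0 fell, with a median of 0.29 and 15 at an unadjusted p under 0.05 (limma). In rescue against wild type 2 of the 21 endothelial markers fell and 0 rose. Stellate cell markers were also read in Clock mutant against wild type. There 4 of 14 markers of stellate cells and fibroblasts were lower and 1 was higher, with sums of 4040 to 4476 in rescue, 3496 to 3606 in Clock mutant and 4247 to 4607 in wild-type livers. The Clock mutant sums lay below all others, and 3 of the 14 markers were higher in rescue than in Clock mutant. Neutrophil markers, which bear on Lcn2, were called for 0 of 13 by limma in Clock mutant against wild type, with 2 at an unadjusted p under 0.05. Their sums were 350 to 432 in rescue, 398 to 442 in Clock mutant and 377 to 413 in wild-type livers. In rescue against wild type 1 of the 13 was called, Cxcr2 (-0.59 ± 0.14, SE, limma adjusted p = 0.0365). It was dim, at 3.46 in rescue and 4.04 in wild-type livers. Of 16 hepatocyte markers 4 rose and 0 fell in Clock mutant against wild type, with Asgr1 at 0.76, Asgr2 at 0.64 and F2 at 0.44. The sum of the 16 was 59691 to 68865 in rescue, 63962 to 69944 in Clock mutant and 58394 to 65266 in wild-type livers. In whole liver, fewer cells of a type and less RNA per cell cannot be told apart, and the part of these cells in the results below was not tested. RMA values are never listed at 0, and 17 of the 19 macrophage and 9 of the 13 neutrophil markers lay above the receptor gene median on all 9 arrays.

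**Figure D2:**
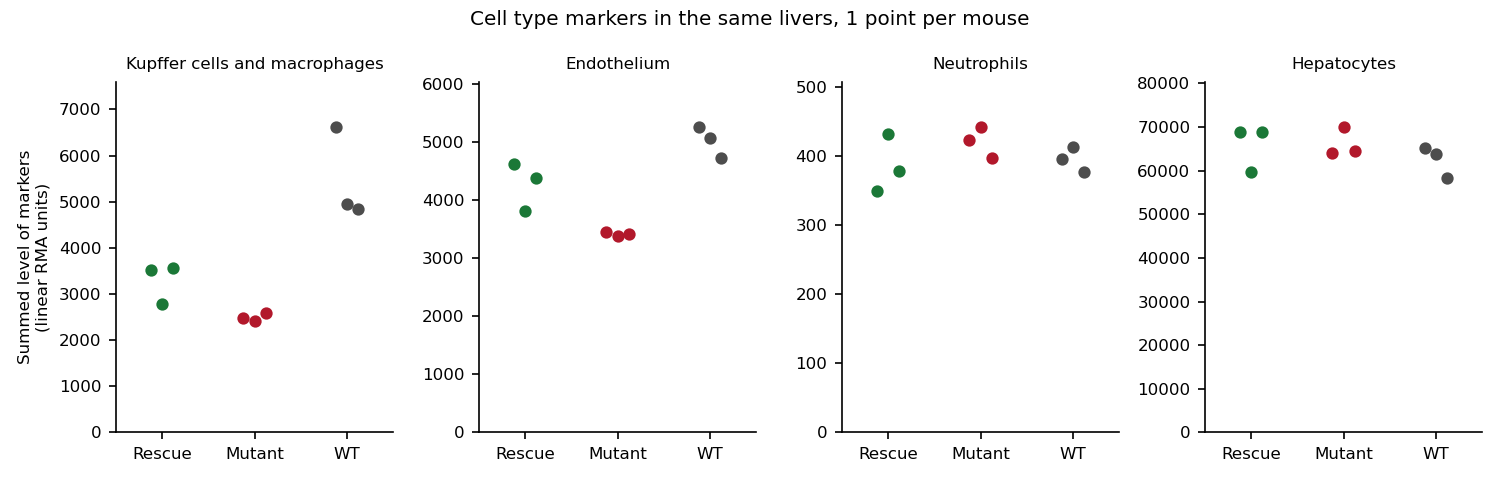
Summed level of cell type markers (sum of 2 to the power of the RMA value, linear units, vertical axes starting at 0) in rescue, Clock mutant (Mutant) and wild-type (WT) livers, 1 point per mouse. Macrophage sums of wild-type livers (4847 to 6613) lie above those of rescue (2785 to 3559) and Clock mutant livers (2406 to 2595), while the neutrophil sums and the hepatocyte sums overlap between the groups.

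Il6ra, the gene of the ligand-binding receptor chain, was lowest in rescue livers. Its log2 values were 7.05, 6.70 and 7.13 in rescue livers, 7.27, 7.29 and 7.24 in Clock mutant livers and 7.83, 7.96 and 7.44 in wild-type livers. The groups did not overlap in any of the 3 comparisons, and the Clock mutant values lay within a range narrower than in either other group. Rescue was 0.78 ± 0.14 (SE) lower than wild type on the log2 scale, that is 1.72-fold lower (limma adjusted p = 0.00854, n = 3 per group), and this call held in all 18 alternative settings (adjusted p 0.00203 to 0.0439). Clock mutant was below wild type by a difference of -0.48 ± 0.14 (limma adjusted p = 0.0352). That call was lost without Clock mutant replicate 1 (-0.48, adjusted p = 0.0797), 2 (-0.49, 0.0706) or 3 (-0.46, 0.0856) and without wild-type replicate 1 (-0.43, 0.104) or 2 (-0.37, 0.128). The difference between rescue and Clock mutant was -0.30 ± 0.14 (limma adjusted p = 0.237), so the rescue values lay farther from wild type than the Clock mutant values did, by an amount that did not pass the test and was -0.17 without rescue replicate 2.

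Il6st, the gene of gp130, fell in Clock mutant livers, and rescue livers lay between the other groups. Its log2 values were 10.47, 10.50 and 10.66 in rescue, 10.42, 10.37 and 10.42 in Clock mutant and 10.84, 10.85 and 10.75 in wild-type livers. No value of one group fell inside the range of another. Clock mutant against wild type was -0.41 ± 0.10 (SE, limma adjusted p = 0.0129, n = 3 per group), or 1.33-fold lower, and was called in all 18 alternatives (adjusted p 0.00243 to 0.0437). Rescue differed from Clock mutant by 0.14 ± 0.10 (adjusted p = 0.445; 95% interval -0.07 to 0.35) and from wild type by -0.27 ± 0.10 (adjusted p = 0.207; interval -0.48 to -0.06). Groups whose 3 values did not overlap made up 25.7% of all genes in rescue against Clock mutant, 35.7% in Clock mutant against wild type and 19.5% in rescue against wild type.

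Stat3 and Socs3, the transcription factor and the feedback inhibitor downstream of gp130, overlapped between all groups. Stat3 had log2 values of 8.68, 8.54 and 8.59 in rescue, 8.83, 8.62 and 8.82 in Clock mutant and 8.84, 8.75 and 8.60 in wild-type livers. Its difference was -0.15 ± 0.11 in rescue against Clock mutant and 0.02 ± 0.11 in Clock mutant against wild type (limma adjusted p = 0.432 and 0.909, n = 3 per group), with a 95% interval of -0.21 to 0.25 for the second. Socs3 had 6.35, 6.53 and 6.42 in rescue, 6.41, 6.64 and 6.39 in Clock mutant and 6.62, 6.76 and 6.41 in wild-type livers. The highest value of each group was that of replicate 2. Its differences were -0.05 ± 0.12, -0.11 ± 0.12 and -0.17 ± 0.12 in rescue against Clock mutant, Clock mutant against wild type and rescue against wild type (adjusted p = 0.833, 0.538 and 0.604). Socs3 was the one gene of the 10 with a second probe set, a dimmer one that read 5.28, 5.62 and 5.54 in rescue, 5.51, 5.86 and 5.58 in Clock mutant and 5.59, 5.43 and 5.25 in wild-type livers. With the mean of both probe sets the Clock mutant against wild-type difference turned to 0.06, so the probe sets disagree on the sign of a difference that did not pass.

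Saa4, the constitutive serum amyloid A gene, was lower in both groups that carry the mutation. Its log2 values were 10.39, 10.44 and 10.81 in rescue, 10.37, 10.58 and 10.50 in Clock mutant and 11.30, 11.00 and 11.11 in wild-type livers. All 6 livers with the mutation lay below all 3 wild-type livers. Clock mutant against wild type was -0.66 ± 0.13 (SE, limma adjusted p = 0.00362, n = 3 per group), or 1.58-fold lower, and was called in all 18 alternatives (-0.58 to -0.78 on the log2 scale, adjusted p 4.36e-04 to 0.0194). Rescue against wild type was -0.60 ± 0.13 (adjusted p = 0.0242), a call lost without rescue replicate 1 (-0.52, adjusted p = 0.099) or 2 (-0.54, 0.0957) or wild-type replicate 1 (-0.51, 0.111) or 3 (-0.61, 0.0743). Rescue differed from Clock mutant by 0.06 ± 0.13 (adjusted p = 0.818; 95% interval -0.21 to 0.34).

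Saa1 and Saa2, the inducible forms, were dim, passed in no comparison and had a single high animal in the Clock mutant and wild-type groups. Saa1 had log2 values of 4.71, 4.85 and 5.19 in rescue, 5.74, 5.13 and 4.94 in Clock mutant and 6.56, 5.09 and 5.28 in wild-type livers. Wild-type replicate 1 was the highest of all 9 livers, and Clock mutant replicate 1 was the highest of its group. Saa2 had 5.14, 5.03 and 5.05 in rescue, 5.80, 5.16 and 5.29 in Clock mutant and 5.91, 5.40 and 5.56 in wild-type livers. Replicate 1 was again the highest of the Clock mutant and of the wild-type livers, and the rescue values lay below all 6 others. Saa1 and Saa2 are near copies, so probes of one may also bind transcripts of the other. Their Pearson correlation over the 9 arrays was 0.854, given as a description. Rescue against wild type was -0.72 ± 0.30 for Saa1 and -0.55 ± 0.16 for Saa2 (SE, limma adjusted p = 0.274 and 0.0981, n = 3 per group), and Saa2 was called without Clock mutant replicate 1 (-0.55, 0.0445). Rescue against Clock mutant was -0.35 ± 0.30 and -0.34 ± 0.16 (adjusted p = 0.522 and 0.237), and Clock mutant against wild type was -0.37 ± 0.30 and -0.21 ± 0.16 (adjusted p = 0.421 and 0.407). Without wild-type replicate 1 the Saa1 difference was -0.27 in rescue against wild type and turned to 0.09 in Clock mutant against wild type, and that of Saa2 in Clock mutant against wild type was -0.06. The Clock mutant against wild-type differences ranged from -0.65 to 0.09 for Saa1 and from -0.40 to -0.06 for Saa2 without single arrays. Without Clock mutant replicate 1 the differences between rescue and Clock mutant were -0.12 for Saa1 and -0.15 for Saa2.

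Saa3, the macrophage and fat form, had log2 values of 4.57, 4.80 and 4.85 in rescue, 4.83, 4.95 and 4.93 in Clock mutant and 5.05, 4.93 and 4.80 in wild-type livers. The groups overlapped, and the differences were -0.16 ± 0.11, -0.02 ± 0.11 and -0.19 ± 0.11 in rescue against Clock mutant, Clock mutant against wild type and rescue against wild type (SE, limma adjusted p = 0.416, 0.911 and 0.502, n = 3 per group). The median of 1194 olfactory and vomeronasal receptor genes, which liver is not known to use, was 4.07 to 4.25 on these arrays and their 95th percentile 5.73 to 6.00. Saa3 lay below that percentile on all 9 arrays, and Saa1 and Saa2 exceeded it on 1 array each, while the other 7 genes exceeded it on all 9. Probe sets differ in affinity, so this comparison only marks Saa1, Saa2 and Saa3 as genes whose differences RMA may compress.

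Hp and Lcn2 differed in opposite directions in Clock mutant against wild type, and neither passed. Hp, the haptoglobin gene, had log2 values of 11.40, 11.18 and 11.47 in rescue, 11.56, 11.33 and 11.54 in Clock mutant and 11.35, 11.05 and 10.83 in wild-type livers. One wild-type liver exceeded the lowest Clock mutant value. The difference was 0.41 ± 0.13 in Clock mutant against wild type (SE, limma adjusted p = 0.0554, n = 3 per group), with calls in 6 of 18 alternatives (adjusted p 0.0184 to 0.226 over the 18). Without wild-type replicate 1 it was 0.54 (adjusted p = 0.0184), without wild-type replicate 3 0.28 (0.226), and with the gene span trend removed 0.29 (0.196). Rescue differed from Clock mutant by -0.13 ± 0.13 and from wild type by 0.28 ± 0.13 (adjusted p = 0.614 and 0.374), and the second was 0.16 without wild-type replicate 3.

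Lcn2, the siderophore-binding lipocalin gene, had log2 values of 6.01, 6.19 and 6.36 in rescue, 6.17, 6.52 and 6.04 in Clock mutant and 7.10, 6.31 and 6.71 in wild-type livers. Wild-type replicate 2 lay within the range of both other groups, and the remaining wild-type livers lay above all 6 livers with the mutation. Clock mutant against wild type was -0.47 ± 0.18 and rescue against wild type -0.52 ± 0.18 (SE, limma adjusted p = 0.0895 and 0.166, n = 3 per group). Without wild-type replicate 1 these were -0.27 (adjusted p = 0.321) and -0.32 (0.461), and without wild-type replicate 2 they were -0.66 (0.0199) and -0.72 (0.0427). The first was also called with median centring (-0.54, adjusted p = 0.0476), array weights (-0.54, 0.0431) and the gene span trend removed (-0.58, 0.039). Rescue differed from Clock mutant by -0.06 ± 0.18 (adjusted p = 0.885).

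**Figure D3:**
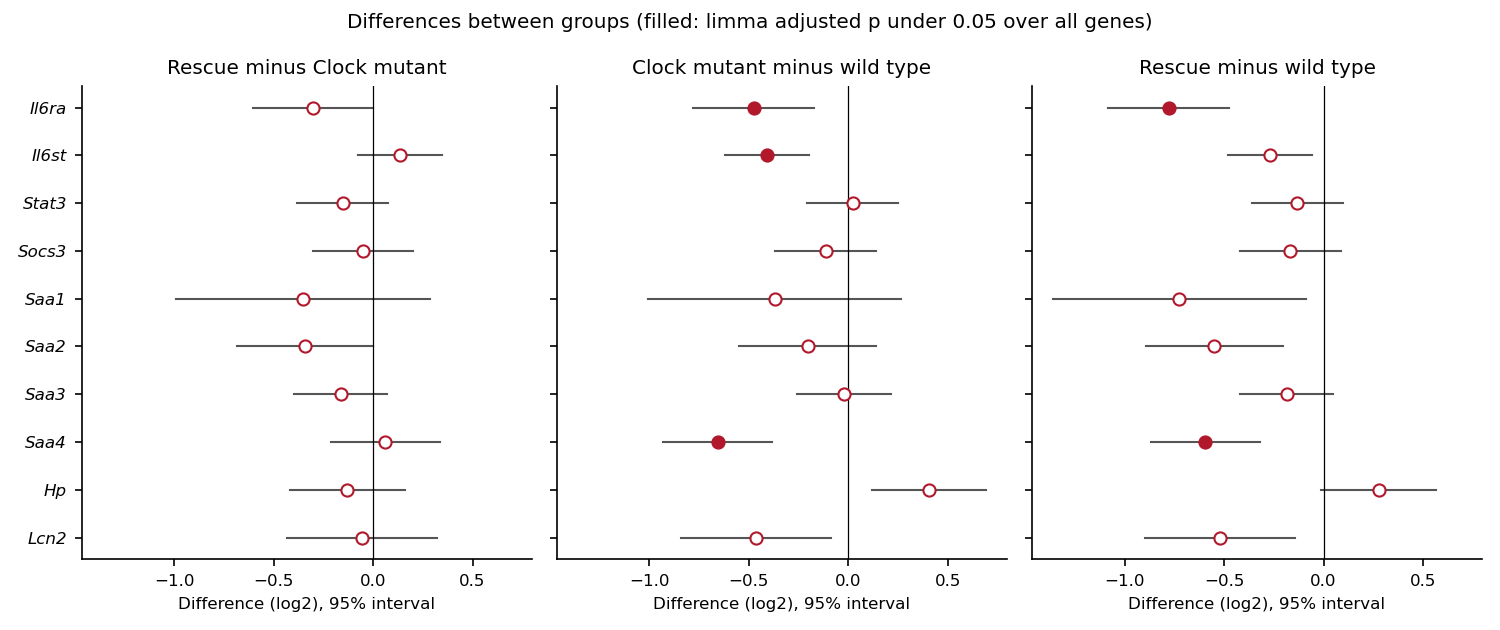
Differences between groups (log2, horizontal axis) for the 10 genes, with 95% intervals from the linear model; filled points have a limma adjusted p under 0.05 over all genes. Filled points are Il6ra, Il6st and Saa4 in Clock mutant minus wild type and Il6ra and Saa4 in rescue minus wild type, with none in rescue minus Clock mutant.

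Other genes of the pathway were read from 8 lists by role, with 117 measured genes besides the 10. Of these, 31 were called in Clock mutant against wild type (12 rose and 19 fell), 5 in rescue against Clock mutant (4 rose and 1 fell) and 8 in rescue against wild type (3 rose and 5 fell). Without wild-type replicate 3 the first count was 16, and without Clock mutant replicate 1 it was 19. The second was 2 without rescue replicate 3 or Clock mutant replicate 1 or 2 and 3 without rescue replicate 2 or Clock mutant replicate 3. The third was 1 to 4 without any single rescue array, without Clock mutant replicate 1 or 3 or without wild-type replicate 1 or 3. Over all genes 1270 rose and 1798 fell in Clock mutant against wild type, or 610 and 2272 with each array centred on its median and 793 and 1818 with the gene span trend removed. In rescue against Clock mutant 520 rose and 239 fell over all genes, or 780 and 126 and then 504 and 138 under the same settings.

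None of 8 measured ligands passed in any comparison in limma, with 0 at an unadjusted p under 0.05, and Il6 itself averaged 2.59 ± 0.11 in rescue, 2.79 ± 0.27 in Clock mutant and 2.91 ± 0.32 in wild-type livers (log2, SD, n = 3 each), below the receptor gene median. Of 7 other receptor chains and shedding proteases 5 fell in Clock mutant against wild type, with a list median of -0.44, and 3 calls without Clock mutant replicate 2 or wild-type replicate 1 or 3. Osmr, the oncostatin M receptor chain that pairs with gp130, averaged 6.82 in rescue, 6.17 in Clock mutant and 6.82 in wild-type livers. It fell by 0.65 ± 0.10 on the log2 scale in Clock mutant against wild type and rose by 0.66 ± 0.10 in rescue against Clock mutant (SE, limma adjusted p = 7.14e-04 and 0.00452, n = 3 per group), both in all 18 alternatives. Erap1 (-0.67 ± 0.11), Adam10 (-0.58 ± 0.11) and Adam17 (-0.44 ± 0.12) also fell in Clock mutant livers. The ADAM proteases cut the IL-6 receptor from the cell surface, and the Adam17 call was lost in 3 of 18 alternatives. Lifr, the leukaemia inhibitory factor receptor, completed the 5 at -0.43 and was named after its values were seen. The receptor chain genes Cntfr (0.01, adjusted p = 0.984) and Il27ra (0.11, 0.477) were not called. In rescue against wild type Erap1 alone was called (-0.46 ± 0.11, adjusted p = 0.0368), and not in 9 of 18 alternatives.

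Among 10 measured kinase, STAT and adaptor genes, 3 fell and 2 rose in Clock mutant livers. Jak2 fell by 0.58 ± 0.09 and Jak1, the main kinase bound to gp130, by 0.39 ± 0.10 on the log2 scale (SE, limma adjusted p = 0.001 and 0.0148, n = 3 per group). The adaptor gene Gab1 fell by 0.45 ± 0.10, while Grb2, also an adaptor, rose by 0.41 ± 0.10. The Jak1 call was lost in 3 of 18 alternatives. Stat5a, a growth hormone and cytokine effector named after its values were seen, was the other gene that rose, by 0.44. In rescue against Clock mutant Jak2 rose by 0.38 ± 0.09 (adjusted p = 0.0395), a call lost in 9 of 18 alternatives. Without wild-type replicate 3, 3 genes were called in Clock mutant against wild type.

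Of 12 measured negative regulators, 3 fell and 1 rose in Clock mutant against wild type, beside 1 call without wild-type replicate 3. Socs4 (-0.59 ± 0.13), the STAT inhibitor gene Pias1 (-0.47 ± 0.11) and Socs6 (-0.46 ± 0.13, or -0.13 and not called with the mean of its probe sets) fell, and Pias3, named as an inhibitor of activated STAT3, rose by 0.37 ± 0.11 on the log2 scale (SE, limma, adjusted p at most 0.0342). The Socs6 call was lost in 6 of 18 alternatives, that of Pias1 in 1 of 18, and that of Pias3 in 8 of 17, median centring, repeated quantile normalization and the gene span trend removed among them. Pias3 lay below the receptor gene 95th percentile on every array. Pias1 rose by 0.48 ± 0.11 in rescue against Clock mutant (adjusted p = 0.0291), and Pias3 by 0.46 ± 0.11 in rescue against wild type (0.0411), calls lost in 4 of 18 and 9 of 17 alternatives. Ptprc, which encodes CD45, a phosphatase of all leukocytes that acts on JAKs, averaged 8.02 ± 0.14 in rescue, 6.73 ± 0.18 in Clock mutant and 6.82 ± 0.24 in wild-type livers (SD, n = 3 each). It was higher in rescue than in Clock mutant by 1.29 ± 0.13 and than in wild type by 1.21 ± 0.13 (SE, adjusted p = 3.44e-04 and 2.71e-04), in all 18 alternatives. Ptprc is also on the lymphocyte list, of which no other member was called in rescue against either group.

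In the IL-1, TNF and NF-kB branch, 4 of 20 measured genes fell and 1 rose in Clock mutant against wild type, and in limma none was called in rescue against Clock mutant or wild type, where 6 and 3 had an unadjusted p under 0.05. The cytokine gene Il1a fell by 0.81 ± 0.21, the endotoxin receptor gene Tlr4 by 0.72 ± 0.13 and Traf6 by 0.38 ± 0.11 on the log2 scale (SE, limma adjusted p = 0.0166, 0.00246 and 0.0292, n = 3 per group). Il1rn, the IL-1 receptor antagonist gene and itself an acute phase gene, was at -0.51 (adjusted p = 0.0359) and was named after its values were seen. The adaptor gene Myd88 rose by 0.49 ± 0.11. Of 18 alternatives, the Traf6 call was lost in 5, that of Il1a in 2 and that of Myd88 in 1. Without Clock mutant replicate 2 the count of calls was 2. Tlr4 and Il1a are expressed in macrophages too, whose markers were lower in the same comparison. Tlr4 was dim, at 5.22 in rescue, 4.72 in Clock mutant and 5.45 in wild-type livers, below the receptor gene 95th percentile on every array. Among 11 acute phase transcription factors, the glucocorticoid receptor gene Nr3c1 (-0.63 ± 0.12) and Foxo1 (-0.42 ± 0.12) fell and Creb3l3 rose by 0.34 ± 0.10, while Cebpb was at -0.27 and Cebpd at -0.18, neither called. The Creb3l3 call was lost in 8 of 18 alternatives, median centring and the gene span trend removed among them, and the Foxo1 call in 3. Without Clock mutant replicate 3 or wild-type replicate 3, 1 gene was called.

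Of 37 measured plasma protein genes of the positive acute phase besides the 10 genes, 7 rose, 3 fell and 27 did not pass in Clock mutant against wild type, with a list median of 0.11. Il1rn is on this list and on that of the IL-1, TNF and NF-kB branch. Its fall counts in each list but once among the 117 genes. In the same comparison 4 of 16 hepatocyte markers rose, but the lists overlap. F2 is on both and counts among the rises of each, and Fgb is on both and was not called. The part of hepatocytes in these values was not tested. Itih3, an inter-alpha-trypsin inhibitor heavy chain gene, rose by 0.55 ± 0.11 and Lbp, the lipopolysaccharide-binding protein gene, by 0.55 ± 0.13 on the log2 scale, whereas the orosomucoid gene Orm3 fell by 1.09 ± 0.20 and the complement gene C2 by 0.55 ± 0.10 (SE, limma, adjusted p at most 0.0114, n = 3 per group). The counts depended on single arrays and on scaling, with 2 rises and 2 falls without Clock mutant replicate 1, 2 and 4 without wild-type replicate 2, 2 and 3 without wild-type replicate 3, 4 and 4 with median centring, and 13 and 3 with array weights. In limma, 21 of the 37 had an unadjusted p under 0.05 in Clock mutant against wild type, 14 in rescue against Clock mutant and 10 in rescue against wild type. In rescue against Clock mutant C4b, a complement gene, was lower (-0.48 ± 0.11, adjusted p = 0.0326), a call lost in 7 of 18 alternatives. The calls in that comparison numbered 0 to 6 over the alternatives. C4b was higher in Clock mutant than in wild type (0.45, adjusted p = 0.0147), in 15 of 18 alternatives. In rescue against wild type Orm3 (-0.87 ± 0.20) and the metalloreductase gene Steap4 (-0.55 ± 0.13) fell and the mannose-binding lectin gene Mbl1 rose by 0.49 ± 0.12 (adjusted p = 0.036, 0.0492 and 0.0394), each lost in 5 or more alternatives. Orm1, Orm2 and Orm3 are paralogs, and whether their probes share transcripts was not tested. Orm1 averaged 11.12 in rescue, 11.28 in Clock mutant and 11.17 in wild-type livers, and Orm3 averaged 4.65, 4.43 and 5.52. Orm2, named after its values were seen, averaged 5.65, 5.61 and 6.62 and was not called. Its wild-type values were 8.14, 5.88 and 5.85. Orm3 lay below the receptor gene 95th percentile on every array, so it is dim and RMA may compress its differences. Of 13 negative acute phase genes, whose products fall during inflammation, none was called by limma in Clock mutant against wild type (0 to 2 over the alternatives), and 2 had an unadjusted p under 0.05. Albumin (Alb) averaged 13.13 in rescue, 13.07 in Clock mutant and 13.07 in wild-type livers. Alb, Ttr, Ahsg and Apoa1 of this list are hepatocyte markers too. Serpina6, the corticosteroid-binding globulin gene, was lower in rescue than in wild type (-0.49 ± 0.12, adjusted p = 0.0423), a call lost in 8 of 18 alternatives.

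**Figure D4:**
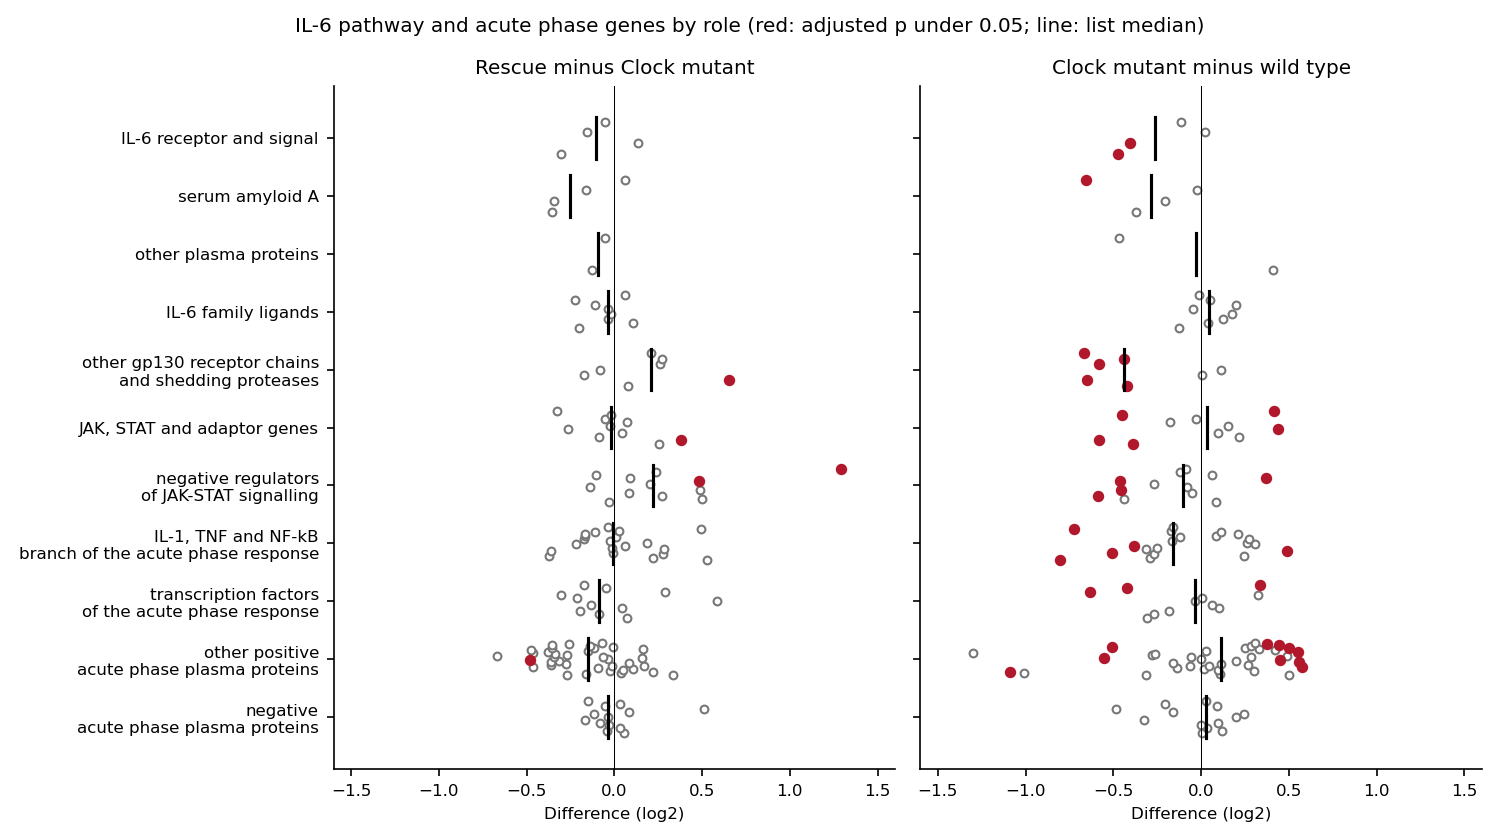
Differences (log2, horizontal axis) of single genes by role, in rescue minus Clock mutant (left) and Clock mutant minus wild type (right); red points have a limma adjusted p under 0.05 and black lines are list medians. In the right panel 5 of 7 receptor chains and proteases lie below 0 in red while 7 positive acute phase genes lie above it, and the left panel has red points for Osmr, Jak2, Ptprc, Pias1 and C4b.

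The genes whose values followed each of the 10 most closely over the 9 arrays were read among 9618 genes brighter than the median gene, by Pearson correlation and as a description, since the arrays share the group differences. For Il6ra they were Ndufa10 (0.966), N4bp2l1 (0.959) and Herpud1 (0.956). For Il6st they were Tmed5 (0.983), Bpnt2 (0.976) and Uhmk1 (0.976), and for Saa4 Aqp11 (0.975), Camk2n1 (0.965) and Gpcpd1 (0.962). Hp was closest to Acaa1b (0.968), a peroxisomal thiolase gene, then Dhrs11 (0.960) and Trafd1 (0.957). Lcn2 was closest to the interferon-inducible Gbp3 (0.935), Zcchc14 (0.929) and Il1rn (0.918). Among the 10 genes themselves the highest correlation was that of Il6st with Saa4 (0.914), followed by Saa4 with Lcn2 (0.856) and Saa1 with Saa2, and Hp was negatively correlated with Il6st (-0.573) and Saa4 (-0.542).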

How the data were processed

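Per the labels, liver RNA of 9 mice was extracted with TRIzol and labelled with a terminal labelling kit. The deposited table holds 1 log2 value for each probe set and array, which, per the submitters' processing notes, the authors computed by RMA with the Affymetrix software Expression Console. No version is stated in what was used here. The method gives the probe intensities of all arrays the same distribution before they are combined into probe sets, and shrinks differences where signal is low. The gene values used here still differed in their median by array. It was 6.13 to 6.20 in rescue, 6.21 to 6.27 in Clock mutant and 6.12 to 6.19 in wild-type livers (log2). That the base is 2 was inferred from the range.

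Of 35556 probe sets, 21789 had 1 gene symbol in the platform annotation, 1621 had several (not named) and 12146 none; 21698 matched RefSeq genes (GRCm38.p6, used for names and gene span). A gene with several probe sets was represented by its brightest, which left 19938 genes. All 9 arrays entered 1 model (limma 3.58.1, R 4.3.3; 6 residual and 8.475 prior degrees of freedom) with 3 contrasts, and called genes had a Benjamini-Hochberg adjusted p under 0.05. The model was tested on simulated data. Motifs were searched with Python 3.11.15 and windows aligned with Biopython 1.88.

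The 10 genes and the lists were chosen with earlier results of these data known. The text names the 10 genes, up to 4 called genes of smallest p per list and comparison, and per gene the 3 of highest correlation (shown for 5 genes). Marker lists are given by counts and summed levels. Adipocyte and lymphocyte lists were also read: 0 of 7 (1 at an unadjusted p under 0.05, limma) and 1 of 15, which was lower, were called in Clock mutant against wild type. List genes not measured here under a single symbol were left out.

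Other settings tried were median centring, a second quantile normalization, removal of the gene span trend by lowess, the mean of probe sets, array weights, a trended and robust prior, a filter that drops the 40% of genes with the lowest means, a replicate block, a fit of only the 2 groups compared, and each array left out in turn. Their use on the lists was added after seeing the data.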

Additional observations from a re-analysis of the deposited data

How the results depend on the processing

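Of 531 values of the 10 genes under alternative settings, 509 kept their call, 13 gained one and 9 lost one, and no called difference changed sign. The losses were those of Il6ra in Clock mutant against wild type (5) and Saa4 in rescue against wild type (4), all without single arrays. With the replicate number as a block, Hp was called in Clock mutant against wild type (0.41, adjusted p = 0.0404) and Saa2 in rescue against wild type (-0.55, 0.0279). The values do not decide whether the numbers pair the samples, and the main fit used no pairing. The deviations of same-numbered arrays from their group means correlated at -0.111 to 0.191, under 0.1 for at least 1 number in each comparison. Those of arrays with different numbers correlated at -0.256 to 0.179. The block changed no other call of the 10 genes. All-gene counts under it were 931 in rescue against Clock mutant, 3368 in Clock mutant against wild type and 507 in rescue against wild type, against 759, 3068 and 454.

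Of the 10 genes, 5 were called in Clock mutant against wild type with array weights, and 2 to 3 without single arrays; 1 to 3 were called in rescue against wild type without single arrays. Over all genes, calls in rescue against Clock mutant were 1178 without the dimmest 40%, 1210 with the trended and robust prior, 1334 with array weights and 200 to 692 without single arrays, against 759. In Clock mutant against wild type they were 1695 to 3130 without single arrays, against 3068. In rescue against wild type they were 711 without the dimmest 40%, 704 with the trended and robust prior and 233 to 501 without single arrays, against 454. Calls among the 117 list genes were 11, 8, 12 and 10 in rescue against Clock mutant (without the dimmest 40%, quantile normalization repeated, trended and robust prior, array weights) and 2 to 6 without single arrays. They were 16 to 32 in Clock mutant against wild type without single arrays. In rescue against wild type they were 3 with only the 6 arrays compared and 1 to 8 without single arrays. Fewer samples or fewer genes tested enter some of these settings; otherwise the cause was not tested. Saa1, Saa2 and Saa3 lie among the dimmest 40% and have no value in that setting, and their low signal limits what could be detected.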

Other observations

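Wild-type replicate 1 was noticed after the values were seen. Of the wild-type group it had the highest Stat3, Saa1, Saa2, Saa3, Saa4, Hp and Lcn2, but not the highest Il6ra, Il6st or Socs3. It was the highest of the 3 wild-type livers for 22 of the 37 other positive acute phase plasma protein genes, against 8 for replicate 2 and 7 for replicate 3, while over all genes it was highest for 32.7%. Its macrophage marker sum was 6613, against 4953 and 4847 in the other wild-type livers. Its sums were also the highest of the wild-type group for endothelium (5251), stellate cells and fibroblasts (4607), lymphocytes (721), adipocytes (953) and hepatocytes (65266). The neutrophil sum was not, at 396 against 413 in replicate 2. The part of any of these cell types in the acute phase values of that liver was not tested.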
